A study of Rattus norvegicus with 14 samples.

Results

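Synapses are held together by pairs of adhesion proteins that reach across the cleft. Neurexins on the presynaptic side bind neuroligins on the postsynaptic side, neuroligin-1 mainly at excitatory synapses and neuroligin-2 at inhibitory ones. Dystroglycan, the product of Dag1, is another neurexin ligand and is found at inhibitory synapses, on astrocyte endfeet and at the vessel wall. Cadm1 (SynCAM1) is an immunoglobulin adhesion molecule that bridges the cleft by binding itself and its relatives, and Cntn1 (contactin-1) is a GPI-anchored immunoglobulin protein of axons, the node of Ranvier region and the oligodendrocyte lineage. The genes described here are Nrxn2, Nrxn3, Nlgn1, Nlgn2, Nlgn3, Dag1, Cadm1 and Cntn1. A probe set was taken when the platform annotation gave it one of these symbols and no other, which gave 13 probe sets for the 8 genes, of 15866 probe sets on the array that are not controls. The genes were listed with their learning minus control differences in view, including opposite signs for Dag1, so those differences are given below as a description.

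Tissue was the microdissected dentate gyrus of 14 male Long-Evans rats, 3 to 4 months old, with an Affymetrix RAE230A array for each rat. All rats had first learned a standard water maze and, 2 to 3 weeks later, had a single session of 8 trials in a new pool. The 7 learning rats had orienting spatial cues and a visible platform that stayed in place, and the 7 control rats had no informative cues and a visible platform that moved between trials. All rats then had a probe swim of 90 s without the platform, 1 h after the last trial, and were killed straight after it. The comparison asks which transcripts of the dentate gyrus differ after a session in which a new place could be learned. No untrained rats are among these arrays, and both groups had swum, so the control group is not a resting baseline.

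Levels are on the log2 scale, 1 per probe set and array, and array medians lay between 5.09 and 5.12. A probe set was tested if its mean over the 14 arrays was at least 4. Of the 13 probe sets, 12 passed, covering 7 genes, and the single Nlgn2 probe set did not. In the fit over 9387 probe sets, 0 of the 12 passed an adjusted p of 0.05 in limma, as did 0% of all probe sets. At an unadjusted p below 0.05 in limma there were 4 of the 12, against 13.1% of all probe sets, and since this contrast was in view when the genes were listed nothing is read from that count. The learning and control arrays overlapped for each of the 12, and did not overlap for 0.405% of all probe sets. The 12 probe sets had a median difference of -0.04 and a median absolute difference of 0.10 log2 units, beside 0.0050 and 0.08 over all probe sets tested. Of the 12, 4 were higher and 8 lower in learning rats, where 51.7% of all probe sets were higher.

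**Figure D1:**
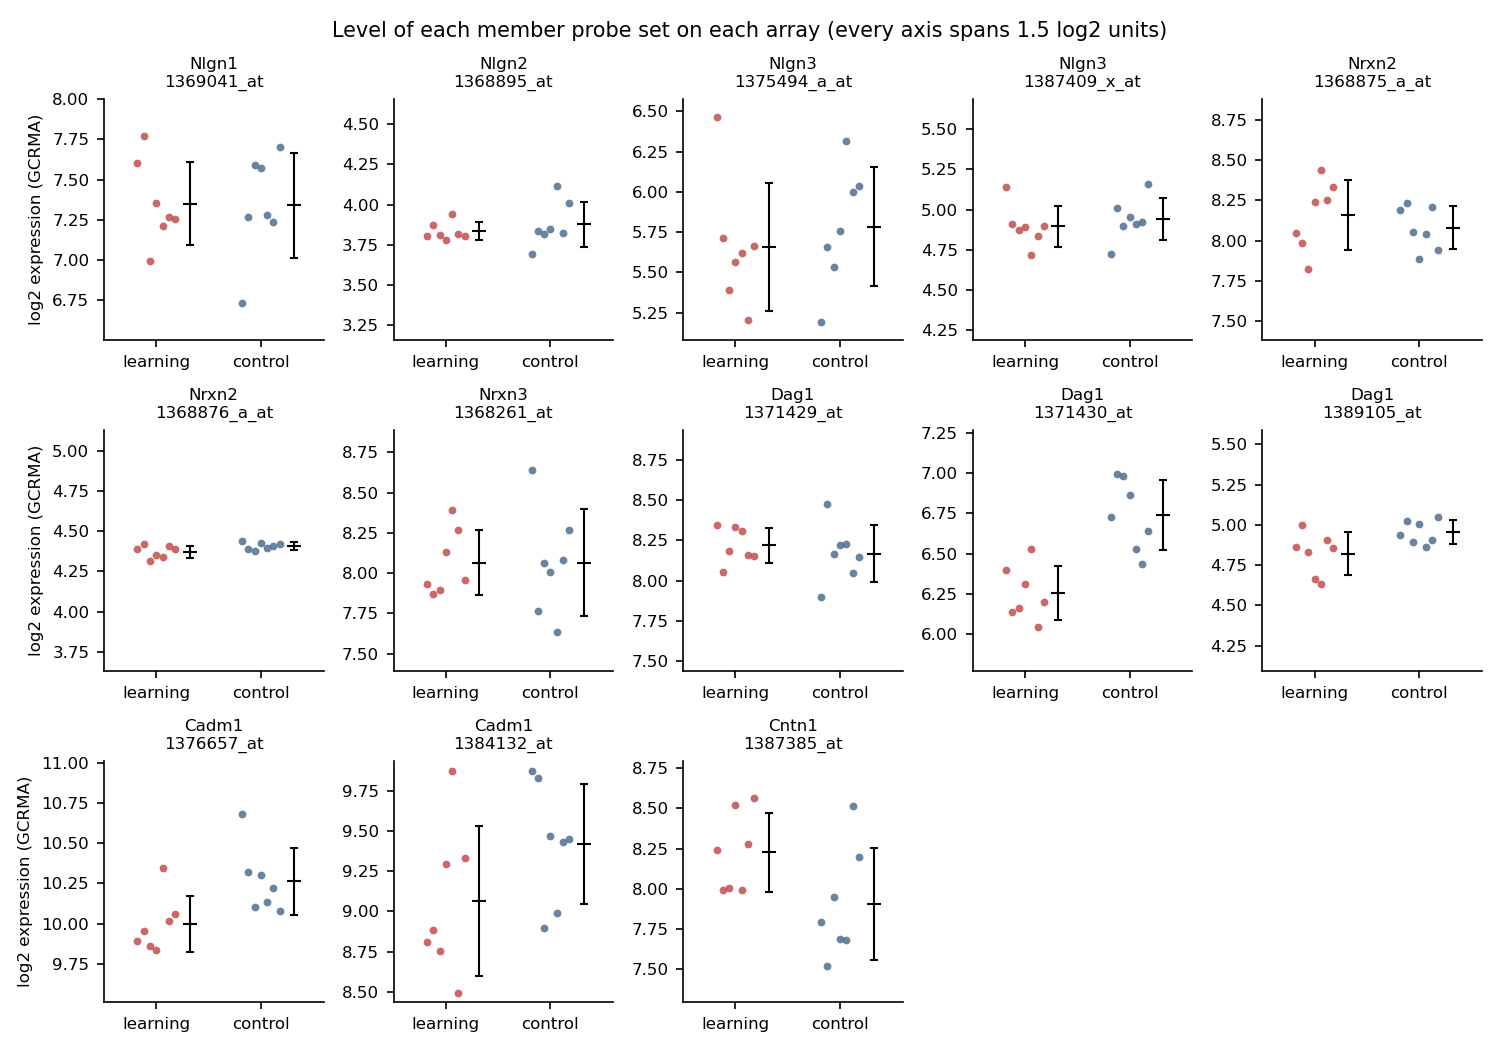
Level of each of the 13 probe sets (vertical axis, log2 expression) on each learning and control array (points), with the mean and SD of each group of 7 as a black bar beside them. All axes span the same width, so the lower learning values of Dag1 1371430_at (6.05 to 6.53, against 6.44 to 6.99 in control rats) stand beside the narrow scatter of the dim Nrxn2 probe set 1368876_a_at (4.32 to 4.42, against 4.38 to 4.44).

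The largest difference among these genes was in dystroglycan, on 1 of its 3 probe sets. On probe set 1371430_at, Dag1 was at 6.05 in the lowest, 6.20 in the median and 6.53 in the highest learning rat, against 6.44, 6.73 and 6.99 in control rats. Of the 7 learning rats, 6 lay below every control rat, and only learning replicate 5 reached into the control range. The group means were 6.26 ± 0.17 in learning rats and 6.74 ± 0.22 in control rats (SD, n = 7 each), a difference of -0.48 ± 0.10 log2 units (SE), or 1.40-fold lower in learning rats. A difference at least this large in either direction was seen for 0.575% of all tested probe sets. Since this contrast was in view when Dag1 was listed, nothing is read from that share. With each array left out in turn the value stayed between -0.53 and -0.44. As in any bulk tissue, fewer cells that express a gene and less RNA per cell cannot be told apart.

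A second, brighter Dag1 probe set did not show this difference. On 1371429_at, Dag1 was at 8.05, 8.18 and 8.35 in the lowest, median and highest learning rat, against 7.90, 8.17 and 8.48 in control rats. The control range enclosed the learning range on both sides. Means were 8.22 ± 0.11 in learning rats and 8.17 ± 0.18 in control rats (SD, n = 7 each), a difference of 0.05 ± 0.08 (SE), which was 0.0052 without control replicate 1, the lowest control array, and 0.10 without control replicate 2, the highest. The third and dimmest probe set, 1389105_at, was at 4.63, 4.86 and 5.0 in learning rats, against 4.86, 4.93 and 5.05 in control rats. Its learning values ran lower, with 4 of 7 below every control rat, and its difference was -0.13 ± 0.06 (SE). The mean of the 3 Dag1 differences was -0.19, whereas the brightest probe set alone gave 0.05.

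The platform annotation lists the same source sequence for 1371429_at and 1371430_at, so their difference within each array was examined. The value of 1371430_at minus 1371429_at ran from -2.11 to -1.77 with a median of -1.95 in learning rats, against -1.69 to -1.17 with a median of -1.48 in control rats. Every learning array lay below every control array, with a gap of 0.08 log2 units between the closest ones. The means were -1.96 ± 0.11 in learning rats and -1.43 ± 0.20 in control rats (SD, n = 7 each), so the signal of the dimmer probe set relative to the brighter one was lower by a difference of -0.53 in learning rats. The opposite signs of Dag1 were in view when the genes were listed, so this difference restates known values and is given as a description. Which of the pair stayed constant, if either did, cannot be read from it. Among 1338 pairs of tested probe sets that share a gene, groups did not overlap for 0.822% of pairs. A within-array difference of this size or larger, in either direction, was seen for 2.32% of pairs. These shares cover pairs that were not selected, and nothing is read from Dag1's place among them. The 2 other Dag1 pairs overlapped between groups, as did the pair of Nrxn2 probe sets, which also share a listed source sequence.

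**Figure D2:**
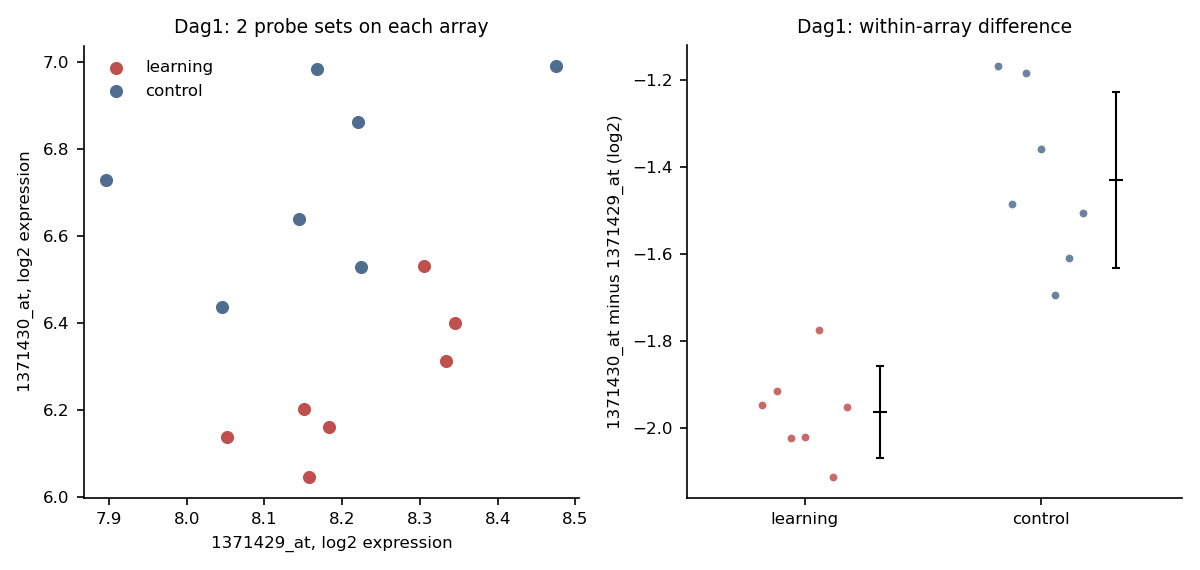
Left, log2 expression of Dag1 on probe set 1371430_at (vertical axis) against 1371429_at (horizontal axis), a point per learning or control array. Right, the within-array difference of the pair in log2 units for learning and control arrays, with mean and SD (n = 7 each) as black bars: learning arrays lie between -2.11 and -1.77, all below the control arrays at -1.69 to -1.17.

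RNA quality was compared over the same arrays through the control transcripts that carry probe sets at both ends. Of 3 such transcripts, beta-actin had a 3′ minus 5′ difference of 1.41 ± 0.11 in learning rats and 1.32 ± 0.09 in control rats (SD, n = 7 each). For GAPDH it was 0.40 ± 0.09 in learning rats and 0.43 ± 0.05 in control rats (SD, n = 7 each). For hexokinase, which had the widest spread, it was 1.53 ± 0.31 in learning rats and 1.49 ± 0.20 in control rats (SD, n = 7 each). The groups overlapped for all 3 transcripts, and their part in the Dag1 values was not tested. The position of the Dag1 probes along the transcript is not given in the files or labels.

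Cadm1 was lower in learning rats on both of its probe sets. On the brighter, 1376657_at, it was at 9.84, 9.95 and 10.35 in the lowest, median and highest learning rat, against 10.08, 10.22 and 10.68 in control rats. Again 6 of the 7 learning rats lay below every control rat, with learning replicate 5 as the exception. Means were 9.997 ± 0.17 in learning rats and 10.26 ± 0.21 in control rats (SD, n = 7 each), a difference of -0.27 ± 0.10 (SE), or 1.20-fold lower, and -0.20 without control replicate 1, the highest control array. On the second probe set, 1384132_at, it was at 8.50, 8.89 and 9.87 in learning rats, against 8.90, 9.45 and 9.87 in control rats. Here the rats of each group were spread far more widely and the highest learning value equalled the highest control value to 2 decimals. The difference was -0.36 ± 0.20 (SE), 1.28-fold lower, with a 95% confidence interval from -0.79 to 0.08 that includes 0. It lay between -0.49 without learning replicate 5 and -0.26 without learning replicate 6.

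**Figure D3:**
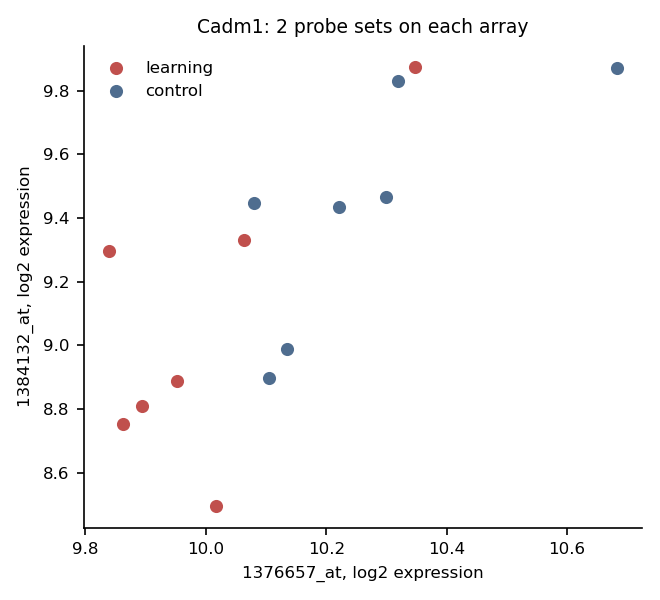
Log2 expression of Cadm1 on probe set 1384132_at (vertical axis) against 1376657_at (horizontal axis), a point per learning or control array. Of the learning arrays, 6 lie left of every control array, and learning replicate 5 sits among the highest control arrays on both axes (10.35 and 9.87).

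Cntn1 went the other way. Its probe set 1387385_at was at 7.99, 8.24 and 8.57 in the lowest, median and highest learning rat, against 7.52, 7.79 and 8.51 in control rats. Every learning rat lay above the control median, and 5 of the 7 control rats lay below every learning rat, while control replicates 6 and 7 lay within the learning range. The means were 8.23 ± 0.25 in learning rats and 7.91 ± 0.35 in control rats (SD, n = 7 each), a difference of 0.32 ± 0.15 (SE), or 1.25-fold higher. The value depended on single control arrays, with 0.42 without control replicate 6 and 0.26 without control replicate 2.

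The neurexins, the presynaptic receptors of the group, differed little. Nrxn3, on its 1 probe set, was at 7.87, 7.96 and 8.39 in learning rats, against 7.64, 8.06 and 8.64 in control rats. The control range enclosed the learning range, and the difference was -0.0017 ± 0.13 (SE), with a 95% confidence interval from -0.29 to 0.28. Its sign depended on single rats, with -0.07 without control replicate 5 and 0.09 without control replicate 1. Nrxn2 on its brighter probe set, 1368875_a_at, was at 7.82, 8.24 and 8.44 in learning rats, against 7.89, 8.06 and 8.24 in control rats. Of the learning rats, 4 lay above every control rat and 1 below every control rat, and the difference was 0.08 ± 0.09 (SE), with 0.03 without learning replicate 5 and 0.14 without learning replicate 3. Its dim probe set, 1368876_a_at, ranged from 4.32 to 4.42 in learning rats and from 4.38 to 4.44 in control rats, with a difference of -0.04 ± 0.04 (SE). That probe set spanned 0.13 log2 units over all 14 arrays, at a level close to the filter. The suffix _a_at marks probe sets that match more than one transcript of a gene.

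The neuroligins, the postsynaptic ligands, differed by less than the SD within either group. Nlgn1 was at 6.99, 7.27 and 7.77 in the lowest, median and highest learning rat, against 6.73, 7.28 and 7.70 in control rats. The groups covered almost the same range, with a difference of 0.01 ± 0.14 (SE) and a 95% confidence interval from -0.30 to 0.32. The sign depended on single rats, with -0.09 without control replicate 1 and 0.07 without control replicate 7. Nlgn3 on 1375494_a_at was at 5.20, 5.62 and 6.47 in learning rats, against 5.19, 5.76 and 6.31 in control rats. The highest learning value, from replicate 1, stood apart from the other learning rats, and the difference of -0.13 ± 0.19 (SE) became -0.26 without it and -0.04 without control replicate 5. The second Nlgn3 probe set, 1387409_x_at, ranged from 4.72 to 5.14 in learning rats and from 4.73 to 5.16 in control rats, with a difference of -0.04 ± 0.07 (SE), or -0.08 when learning replicate 1 was left out and -0.0074 when control replicate 7 was. The suffix _x_at marks probe sets that can also bind other transcripts.

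Nlgn2 could not be assessed. Its 1 probe set was at 3.78, 3.81 and 3.94 in learning rats, against 3.70, 3.83 and 4.12 in control rats. The mean of 3.86 over the 14 arrays lies just under the filter level of 4, while the dim Nrxn2 probe set at 4.39 lies just above it. How much neuroligin-2 mRNA the tissue holds was not read from it.

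**Figure D4:**
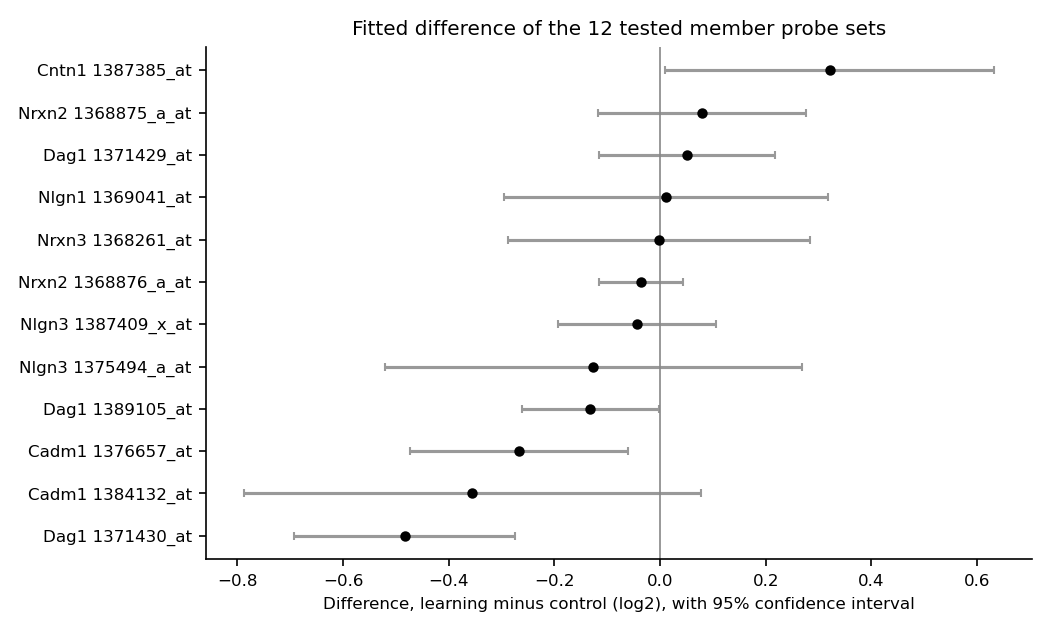
Difference between learning and control rats (horizontal axis, learning minus control, log2 units) of the 12 tested probe sets, with 95% confidence intervals from limma. The 5 largest absolute values belong to Dag1 1371430_at (-0.48), Cadm1 1384132_at (-0.36) and 1376657_at (-0.27), Cntn1 (0.32) and Dag1 1389105_at (-0.13). The intervals of Cadm1 1384132_at, Dag1 1371429_at, the neurexins and the neuroligins include 0.

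Whether probe sets of the same gene vary together among rats of a single group does not use the difference between groups, and could be tested. Over 6 pairs in 4 genes, each group of 7 arrays taken by itself, this gave 12 correlations, each with an exact two-sided permutation test over all 5040 pairings and Benjamini-Hochberg adjustment over the 12. None of the 12 passed an adjusted p of 0.05, and 2 were below 0.05 unadjusted. For Cadm1, r was 0.68 in learning rats (exact permutation p = 0.0962, adjusted p = 0.192; rho = 0.43, p = 0.354) and 0.75 in control rats (exact permutation p = 0.0389, adjusted p = 0.179; rho = 0.79, p = 0.048). Without the 2 arrays farthest from the median these were 0.41 in learning rats and 0.95 in control rats. Both Cadm1 values were positive, and neither passed adjustment.

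The pair of Dag1 probe sets that differed between groups had positive correlations within both groups, and neither passed adjustment. In learning rats, r between 1371429_at and 1371430_at was 0.79 (exact permutation p = 0.0395, adjusted p = 0.179; rho = 0.71, p = 0.0881), and 0.80 without the 2 farthest arrays. In control rats r was 0.49 (exact permutation p = 0.27, adjusted p = 0.404; rho = 0.46, p = 0.302), and 0.48 without the 2 farthest arrays. The dimmest probe set, 1389105_at, had negative correlations with both others in learning rats, which did not pass adjustment. Its r was -0.76 with 1371429_at (exact permutation p = 0.0508, adjusted p = 0.179; rho = -0.54, p = 0.236; -0.98 without the 2 farthest arrays) and -0.73 with 1371430_at (exact permutation p = 0.0653, adjusted p = 0.179; rho = -0.71, p = 0.0881; -0.79 without the 2 farthest arrays). In control rats these values were 0.36 and 0.36 (exact permutation p = 0.44 and 0.399, adjusted p = 0.529 for both; rho = 0.00 and 0.32, p = 1 and 0.498; 0.04 and 0.04 without the 2 farthest arrays). The difference between the groups' correlations was not tested.

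For Nlgn3, r between its probe sets was 0.79 in learning rats (exact permutation p = 0.0744, adjusted p = 0.179; rho = 0.79, p = 0.048) and 0.56 in control rats (exact permutation p = 0.17, adjusted p = 0.292; rho = 0.50, p = 0.267). Without the 2 farthest arrays, r was 0.03 in learning rats, where rho over all arrays was 0.79, and 0.54 in control rats. For Nrxn2, r was 0.06 in learning rats (exact permutation p = 0.893, adjusted p = 0.893; rho = 0.04, p = 0.963) and -0.18 in control rats (exact permutation p = 0.689, adjusted p = 0.751; rho = -0.36, p = 0.444). Without the 2 farthest arrays the Nrxn2 values changed sign, to -0.50 in learning rats and 0.24 in control rats. Arrays of a group share their normalization, and no batch is given in the labels.

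Other genes of synaptic adhesion were grouped by role, with 1 probe set per gene, that of highest mean. No gene of these 4 lists passed an adjusted p of 0.05 in limma. Among extracellular partners of neurexins and neuroligins and related synapse organizers, 14 of 21 genes on the array were tested, 7 higher and 7 lower, with a median difference of -0.0039, and 1 of the 14 was below an unadjusted p of 0.05, where 13.1% of all probe sets were. The median lay between -0.01 and 0.02 with an array left out. That gene was Tenm2, a teneurin that binds latrophilins across the cleft, at -0.27 ± 0.10 (SE). Nxph3, a neurexophilin that binds neurexins, differed by -0.16 near the filter level, and by -0.08 without control replicate 5. Clstn2, a calsyntenin of the postsynaptic membrane, differed by 0.19, and by 0.11 without control replicate 1.

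Among cytoplasmic partners and processing enzymes, 13 of 16 genes were tested, 7 higher and 6 lower, with a median of 0.0097 (-0.04 without control replicate 5, 0.03 without control replicate 7) and 0 below an unadjusted p of 0.05 in limma, against 13.1% of all probe sets. Magi3, a scaffold of the MAGI family, differed by -0.20 on each of its 2 probe sets. Apba3, a Mint adaptor, differed by 0.09, and by 0.05 without learning replicate 2. Adam10, a protease that sheds adhesion proteins from the cell surface, differed by 0.08, and by 0.05 without control replicate 5.

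Among genes of the dystroglycan complex, its ligands and its glycosylation, 14 of 23 were tested, 4 higher and 10 lower, where 51.7% of all probe sets were higher, and 3 were below an unadjusted p of 0.05 in limma, where 13.1% of all were. The median was -0.06, with -0.12 without control replicate 6 and -0.04 without learning replicate 3. B4gat1, an enzyme of the sugar chain by which dystroglycan binds laminin and neurexin, was at 9.13 to 9.40 in learning rats and 9.31 to 9.68 in control rats, a difference of -0.22 ± 0.06 (SE). Pomgnt2, an enzyme that acts earlier on the same chain, differed by -0.25 ± 0.12 (SE), and both groups overlapped for each of these enzymes. Both were named for their small p in this same contrast. Other tested enzymes of dystroglycan glycosylation differed less, with Pomk at 0.02, Pomt1 at -0.02 and Pomgnt1 at -0.09. Aqp4, the water channel anchored by the complex at astrocyte endfeet, differed by -0.23 on its brightest probe set, and by -0.55 and 0.34 on its other probe sets. A further list held immunoglobulin adhesion genes of the Cadm, nectin, contactin and L1 families, together with other adhesion genes and binding partners. Of its 23 genes, 17 were tested, 9 higher and 8 lower. In limma 2 of the 17 were below an unadjusted p of 0.05, where 13.1% of all probe sets were. The median of the 17 was 0.0048, with -0.03 without control replicate 5 and 0.06 without control replicate 6. The 2 genes below 0.05, Ptprz1 and Ntm, are not members of the named families. Ptprz1, a receptor phosphatase that binds contactin-1, differed by -0.31 ± 0.10 (SE), with -0.22 on its other probe set. Ntm (neurotrimin) differed by -0.18, and Afdn (afadin), which links nectins to actin, by 0.19 with -0.04 on its other probe set.

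**Figure D5:**
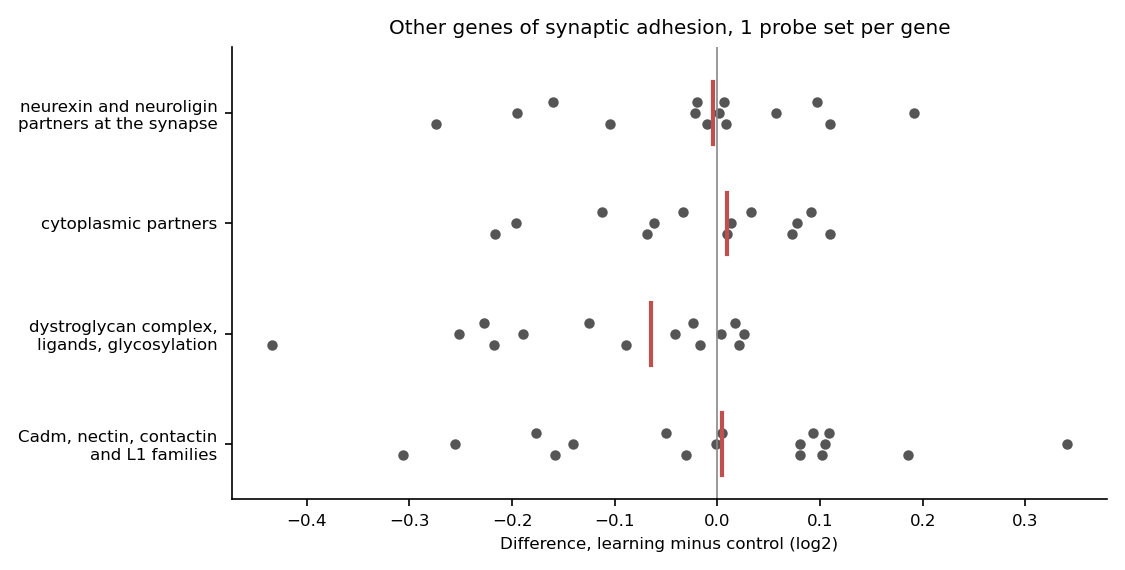
Difference between learning and control rats (horizontal axis, learning minus control, log2 units) of other synaptic adhesion genes in 4 lists, a point per tested gene, with the median of each list as a red bar. The medians lie at -0.0039, 0.0097, -0.06 and 0.0048 from top to bottom.

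Markers of the cells a dentate dissection can hold were read on the same arrays. Choroid plexus markers, of which 2 of 5 on the array were tested, had a mean level of 6.34 to 6.61 in learning rats and 6.67 to 7.98 in control rats, without overlap. The members were Ttr, at a difference of -1.78, and Enpp2, at -0.04. The 5 tested CA1 markers (of 6) had a mean of 7.39 to 7.79 in learning rats and 6.88 to 7.92 in control rats. Their group means were 7.60 ± 0.16 in learning rats and 7.28 ± 0.32 in control rats (SD, n = 7 each), a difference of 0.32, and 6 of the 7 control rats, all but replicate 5, lay below every learning rat. The CA1 difference was uneven over the 5 markers, whose median difference was 0.31. Of the 5, 4 had positive differences. The 2 brightest, Lmo3 at 0.0025 and Itpka at -0.05, lay below the median, and the rest lay at or above it. Cntn1 differed by 0.32, and the part of CA1 cells in that value was not tested. The 8 meningeal markers (of 8) had a mean of 5.45 to 8.39 in learning rats and 5.60 to 8.47 in control rats. Their group means were 6.52 ± 1.25 in learning rats and 6.97 ± 1.22 in control rats (SD, n = 7 each). All 8 were lower in learning rats, with a median difference of -0.53, and 0 were below an unadjusted p of 0.05 in limma. Dag1 is also made by astrocytes, whose 7 markers (of 7) had a mean of 10.90 to 11.12 in learning rats and 10.95 to 11.28 in control rats. Endothelial markers (4 of 5) ranged from 6.70 to 7.10 in learning rats and 6.57 to 7.11 in control rats. For Cntn1, oligodendrocyte markers (6 of 6) ranged from 9.75 to 10.20 in learning rats and 9.60 to 10.35 in control rats, and precursor markers (3 of 4) from 7.20 to 7.65 in learning rats and 7.34 to 7.66 in control rats. Granule cell markers (4 of 6) averaged 9.70 ± 0.08 in learning rats and 9.53 ± 0.09 in control rats (SD, n = 7 each), with 6 of the 7 learning rats above every control rat. Of these 4 granule cell markers, 3 were higher and 1 lower. The 2 brightest were Calb1, the lower one, at -0.03 and Stxbp6 at 0.22. In limma 2 of the 4, both higher, were below an unadjusted p of 0.05, where 13.1% of all probe sets were. The CA3 markers (4 of 4) averaged 8.03 in learning rats and 7.95 in control rats, and interneuron markers (4 of 8) 8.77 in learning rats and 8.76 in control rats. In limma 3 of the 4 CA3 markers, 2 higher and 1 lower, were below an unadjusted p of 0.05, as was 1 of the 4 interneuron markers, which was lower. Microglial markers (7 of 8) averaged 7.47 in learning rats and 7.65 in control rats, with 4 control rats above every learning rat. The part of these cell types in the Dag1, Cadm1 and Cntn1 values was not tested.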

How the data were processed

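Total RNA from the dentate gyrus received a biotin label and each rat's sample was run on its own RAE230A array, per the labels' protocols. The deposited values are log2 expression values made by the authors with GCRMA, per the submitters' processing notes; version and settings are not stated there. The log2 scale was read from the values, which ran from -0.56 to 15.0. The titles give each array's group and name the arrays as biological replicates.

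Gene symbols came from the platform annotation. Of 15923 probe sets, 57 were controls, and 9387 of the others had a mean of at least 4 and were fitted with limma 3.58.1 (lmFit, eBayes) in R 4.3.3, with no covariate and Benjamini-Hochberg adjustment over all of them. The fit was tested on simulated data. The number of arrays limits the precision; the median SE was 0.08 log2 units. The members and the gene and marker lists were chosen with earlier results of these data known. Lists name their 3 genes of smallest p, and the dystroglycan list also names Pomk, Pomt1 and Pomgnt1. Of the marker genes, Ttr, Enpp2, Itpka, Lmo3, Calb1 and Stxbp6 are named as markers. Aqp4 is in both the dystroglycan list and the astrocyte markers. Pairs of probe sets over all genes were compared after the Dag1 values had been seen. Alternatives were other filters, normalizations, priors, array weights, a floor at 3, the replicate number as a block, probe sets averaged per gene, and each array left out. No coordinates or probe sequences were used here.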

Additional observations from a re-analysis of the deposited data

Results flagged for a closer look

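In 38 groups of 7 values looked at (13 probe sets and 6 within-array differences, each in learning and control rats), 2 had a sample far from the others, and chance alone gives about 1 in 20. Nlgn3 on 1375494_a_at was at 6.47 in learning replicate 1, while the other learning rats lay between 5.20 and 5.71. Cadm1 on 1376657_at was at 10.68 in control replicate 1, while the other control rats lay between 10.08 and 10.32.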

How the results depend on the processing

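The count of probe sets past an adjusted p of 0.05 was 0 in all alternatives with all 14 arrays, and with an array left out it ranged from 0 to 1, with 1 without learning replicate 1, learning replicate 4 or control replicate 6. It stayed 0 for the genes described here. Their count at an unadjusted p below 0.05 ranged from 2 to 4 with an array left out, with 2 without learning replicates 1, 4 or 7 or control replicates 1, 2 or 4. Dag1 1371430_at and Cadm1 1376657_at stayed below it in all 22 alternatives, Cntn1 in 12 and Dag1 1389105_at in 10 of 21. This contrast was in view when the genes were listed, so nothing is read from these counts. Nlgn1 kept its sign in 16 of 22 alternatives and Nrxn3 in 13 of 22; the other 10 tested probe sets kept theirs in all. Averaging its probe sets moved Dag1 to -0.19. With the replicate number as a block 0 probe sets passed adjustment and 1330 were below an unadjusted p of 0.05, against 1230 without it. Same-numbered arrays had correlations of deviations between -0.28 and 0.26, so the numbers were not taken to pair the rats. Nlgn2, with a mean of 3.86, lay under the filter level and was fitted only with no filter on low values.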

Other observations

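For each gene the most similar other gene was sought over the 14 arrays, by Pearson r after each group's mean was taken off, among 7796 tested probe sets with 1 symbol. As the highest of so many values these correlations carry no p, and they are descriptions over arrays that share a normalization. Nrxn3 was closest to Tppp, which encodes a tubulin-binding protein of oligodendrocytes, with r of 0.91, rho of 0.89 and r of 0.82 without the 2 arrays farthest from the median. Nrxn2 was closest to Ddx1, an RNA helicase, with r of 0.89, rho of 0.90 and 0.83 without those arrays. Nlgn1 was closest to Mapre1, a microtubule end-binding protein, with r of 0.88, rho of 0.85 and 0.79 without those arrays, and Nlgn3 to Ensa, an inhibitor of protein phosphatase, with r of 0.87, rho of 0.82 and 0.86. Cntn1 was closest to Hapstr1, with r of 0.87, rho of 0.81 and 0.72 without those arrays, and Dag1 on 1371429_at to Ppa2, a mitochondrial pyrophosphatase, with r of 0.85, rho of 0.81 and 0.71. Cadm1 on 1376657_at was closest to Uqcrc1, a subunit of respiratory complex III, with r of 0.90 but rho of 0.61, and 0.52 without the 2 farthest arrays, so that relation rests on those arrays.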
